A study of Drosophila melanogaster with 3 samples.

Results

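Intergenic regions a short way from a gene start were examined in a ChIP-seq map of the transcription factor Scute in Drosophila melanogaster embryos. A region was taken when its summit, the position of highest signal, lay outside every protein-coding gene body and more than 500 bp, but at most 5000 bp, from the nearest protein-coding transcription start. Of the 3612 regions in the authors' thresholded set for the dm6 assembly, 392 met this rule (10.9%, 95% Wilson interval 9.88% to 11.9%). The flies were a transgenic line with GFP fused to the C terminus of the sc gene product, and whole embryos of both sexes, aged 0 to 14 h, were pooled. Chromatin was sonicated to 200 to 800 bp and precipitated with an antibody against GFP. The 3 biological replicates came from the same line and form a single group, so no condition could be compared, and a signal from few cells of the embryo cannot be told apart from a weak signal in many. The control named among the authors' inputs was not analysed here. Since the 392 regions share the same 3 libraries, they are not independent replicates.

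Scute is a proneural basic helix-loop-helix protein of the achaete-scute complex. Paired with Daughterless it binds E-boxes, short sequences of the form CANNTG, and starts the choice of neural precursors in the ectoderm, where Notch signalling and the E(spl) repressors oppose it. Scute also takes part in counting X chromosomes in sex determination. In flies, intergenic DNA upstream of a gene often holds enhancers, and gene neighbours that point away from each other share such an interval. The map shows where the tagged protein was recovered with chromatin, whether bound to DNA itself or through other proteins. Which promoter drives the transgene is not stated in the labels.

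The sequences below are windows that reach 100 bases to each side of a summit, read from the plus strand of dm6 (Release 6). The first 3 are among the 4 regions of best mean rank. None of them contains the heptamer GCAGCTG or GCAGGTG, the site bound by achaete-scute proteins with Daughterless. They are chr2L:14023990-14024190 in the gap between NimC3 and hll, chrX:12751206-12751406 between CG4004 and Paics, and chr2L:2202311-2202511 between COX7AL2 and CG31668. Capitals mark TATAAA on either strand, the TATA box hexamer, which all 3 contain and which is taken up with the other motifs. The region of second-best mean rank, at Psc, contains neither the heptamer nor TATAAA in its window and is not printed, so these 3 windows do not stand for all top regions.
hll: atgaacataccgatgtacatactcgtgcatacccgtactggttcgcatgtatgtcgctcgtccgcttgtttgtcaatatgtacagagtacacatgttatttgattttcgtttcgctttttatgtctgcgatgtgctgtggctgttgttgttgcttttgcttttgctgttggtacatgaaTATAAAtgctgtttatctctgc
CG4004: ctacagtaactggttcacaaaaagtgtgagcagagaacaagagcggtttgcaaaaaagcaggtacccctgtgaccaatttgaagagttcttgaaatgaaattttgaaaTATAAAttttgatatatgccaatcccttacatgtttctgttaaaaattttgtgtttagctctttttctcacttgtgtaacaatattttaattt
CG31668: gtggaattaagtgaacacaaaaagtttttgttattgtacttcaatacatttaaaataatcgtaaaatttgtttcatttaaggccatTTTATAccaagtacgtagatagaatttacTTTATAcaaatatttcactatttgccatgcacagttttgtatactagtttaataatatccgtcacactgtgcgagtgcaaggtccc
The other 5 windows are shown because they do contain the heptamer, in capitals here. They are a choice from 11 such regions and not the 5 best: those at insc and Hr51 had better mean ranks than that at Grl40a and are not printed. Each is named by the gene of its nearest start. They are chr3R:17919122-17919322 (cpo), chr3L:20402812-20403012 (trbl), chr2L:22036983-22037183 (Grl40a), chr3L:10428126-10428326 (Ir67b) and chr3R:26035188-26035388 (E(spl)m7-HLH). The match at cpo reads CACCTGC on this strand and covers 17919147 to 17919153. At Ir67b the capitals cover 2 overlapping matches, one on each strand.
cpo: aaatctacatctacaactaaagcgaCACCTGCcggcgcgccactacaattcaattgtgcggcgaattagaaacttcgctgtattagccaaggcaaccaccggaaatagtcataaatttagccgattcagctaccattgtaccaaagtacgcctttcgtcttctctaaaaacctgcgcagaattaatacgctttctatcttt
trbl: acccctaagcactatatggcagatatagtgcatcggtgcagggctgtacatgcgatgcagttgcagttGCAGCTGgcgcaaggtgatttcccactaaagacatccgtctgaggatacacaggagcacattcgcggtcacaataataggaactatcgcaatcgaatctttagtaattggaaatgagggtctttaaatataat
Grl40a: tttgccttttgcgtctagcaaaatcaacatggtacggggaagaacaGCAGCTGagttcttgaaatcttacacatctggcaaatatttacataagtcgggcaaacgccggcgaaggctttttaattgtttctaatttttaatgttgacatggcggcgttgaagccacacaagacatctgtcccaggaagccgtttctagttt
Ir67b: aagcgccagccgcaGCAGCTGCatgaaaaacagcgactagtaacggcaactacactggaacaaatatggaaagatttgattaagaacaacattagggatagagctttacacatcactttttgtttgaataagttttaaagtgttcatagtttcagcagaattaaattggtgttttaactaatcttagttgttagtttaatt
E(spl)m7-HLH: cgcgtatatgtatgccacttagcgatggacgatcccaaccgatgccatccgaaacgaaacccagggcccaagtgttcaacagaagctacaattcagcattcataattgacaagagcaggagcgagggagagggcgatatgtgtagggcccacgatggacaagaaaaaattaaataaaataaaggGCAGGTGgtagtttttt

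The first question was how often the tagged protein was found in such sequence, given how much of it the genome holds. Intergenic bases at this distance made up 14.2 Mb, or 10.6% of the called bases of the major chromosomes. The thresholded set held 27.7 regions per Mb of them, against 27.0 per Mb over the whole genome. In each replicate list, the same rule was applied to the 3612 regions of highest signal. It took 10.2% of them in replicate 1, 10.8% in replicate 2 and 10.8% in replicate 3 (mean 10.6% ± 0.328, SD, n = 3), which is 1.0 times the share of bases. Near-start intergenic sequence thus carried the highest regions at the genome-wide rate in all 3 libraries. Per Mb, the mean over replicates was 27.0 ± 0.837 there, 91.5 ± 3.49 at promoters (summits within 500 bp of a start), and 41.1 ± 0.789 in introns 500 to 5000 bp from a start. It was 16.8 ± 0.498 in introns farther away, 13.5 ± 0.679 in intergenic sequence farther away, and 1.95 ± 0.252 in exons (SD, n = 3 throughout). The ranges of the 6 classes did not overlap between replicates, so their order was the same in every library, with intronic sequence at the same distance above intergenic sequence.

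**Figure D1:**
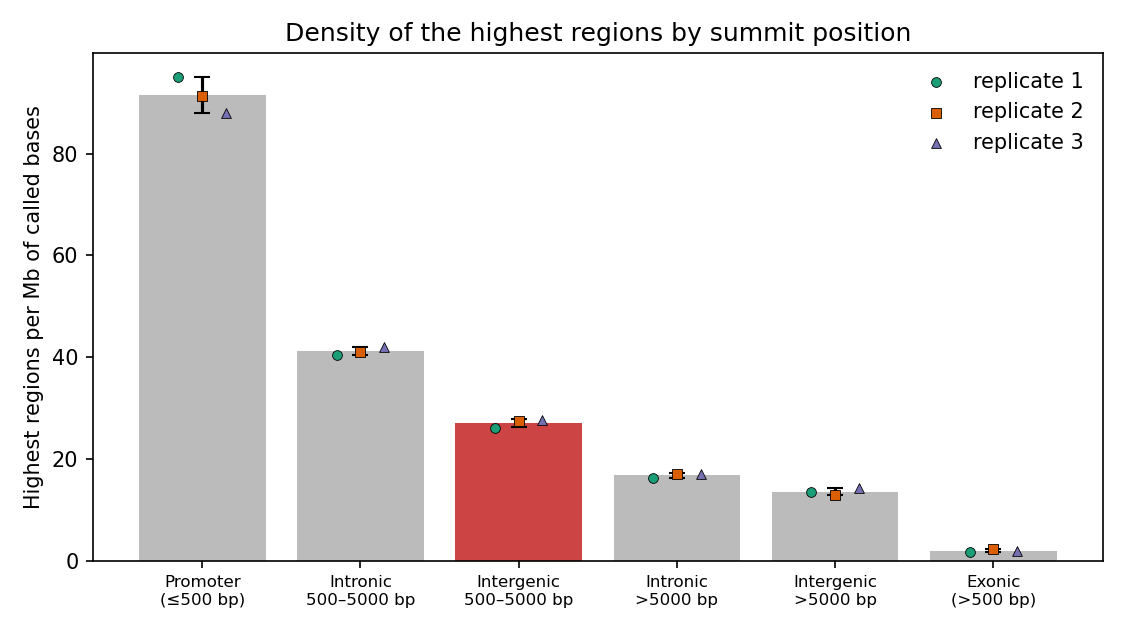
Bars show the mean number of highest-signal regions per Mb of called bases over 3 replicates, by position of the summit, with whiskers of 1 SD and a point for each replicate. Intergenic sequence 500 to 5000 bp from a start, in red, lies at 27.0 per Mb, below intronic sequence at the same distance (41.1) and above intergenic sequence farther away (13.5).

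Within the interval, density was higher close to a start. Summits lay between 508 and 4989 bp from the nearest start, with a median of 1992 bp and quartiles at 1166 and 3395 bp. From 500 to 1000 bp the replicates held 33.5, 34.4 and 36.6 regions per Mb, and from 1000 to 2000 bp 30.2, 31.6 and 31.8. From 2000 to 3000 bp they held 22.4, 22.8 and 22.8, and from 3000 to 4000 bp 21.7, 22.1 and 21.7. All values below 2000 bp were above all values beyond it. From 4000 to 5000 bp the values were 22.1, 26.9 and 25.2 per Mb, a spread that overlaps the bins from 2000 to 4000 bp, so no further decline with distance was detectable. The pooled signal did not follow the same order: its median was 204.4 in the nearest bin, 233.9 in the next and 214.1 in the farthest.

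**Figure D2:**
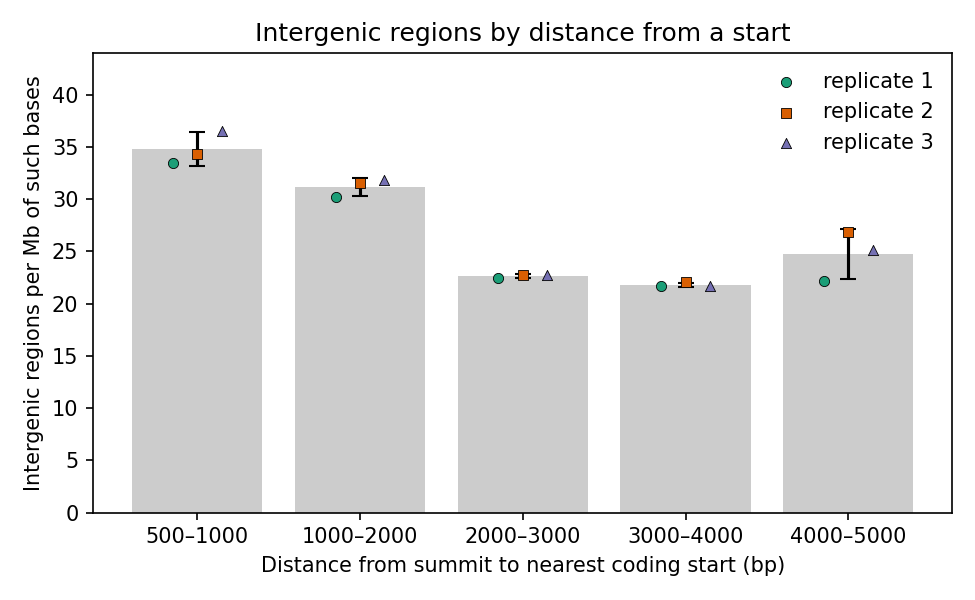
Bars show the mean density of highest-signal intergenic regions per Mb of intergenic bases at each distance from the nearest protein-coding start (bp), over 3 replicates, with whiskers of 1 SD and a point for each replicate. Both bins below 2000 bp lie above 30 per Mb in every replicate, and the bins beyond lie between 21.7 and 26.9.

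The members just inside the distance bounds were a region at CG34221, 508 bp from the start with a pooled signal of 168.5, and one at CG4004, 4989 bp away with 1550.8. Just outside were intergenic summits at CG3348, 499 bp away with 179.1, and at tal-1A, 5056 bp away with 378.7. By arm, the density per Mb of such sequence was 34.6 on 2L (100 regions), 32.7 on 3L (95), 25.6 on 2R (66), 23.3 on 3R (81) and 21.3 on X (47). Arm 4 held 3 regions. In the replicates' own lists the means were 32.1 ± 0.8 on 2L, 33.3 ± 1.77 on 3L, 23.9 ± 1.25 on 2R, 24.6 ± 2.89 on 3R and 19.96 ± 0 on X (SD, n = 3). Arms 2L and 3L were not separated by that spread, nor were 2R and 3R.

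The next question was how these regions lie between their neighbours. Of the 392, 161 lay between divergent genes, whose starts both face the gap (41.1%, against 31.1% of the bases that meet the rule). Another 181 lay between genes in tandem (46.2% against 52.4% of bases) and 50 between convergent genes (12.8% against 16.3%). Per Mb this is 36.6 for divergent, 24.4 for tandem and 21.7 for convergent gaps. In the replicates' own lists the divergent share was 39.0%, 40.6% and 41.0% (mean 40.2% ± 1.06, SD, n = 3), so it exceeded the share of bases in each. The summit was upstream of its nearest start in 302 regions (77.0%, against 69.5% of bases), and in the replicates the upstream share was 76.4%, 77.4% and 78.2%. The gap itself had a median length of 8801 bp. In 385 of the 392 the nearest start belonged to a gene flanking the gap. The geometry classes had like pooled signals, with medians of 217.1 for divergent, 218.6 for tandem and 239.1 for convergent gaps.

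Non-coding genes were common at these summits. Because the rule used protein-coding genes only, a summit could lie in or at a non-coding gene, and 74 did so, either inside the body or within 500 bp of its start (18.9%, Wilson interval 15.3% to 23.1%). Such positions made up 10.7% of the bases that meet the rule. The share in the replicates' own lists was 19.5%, 19.0% and 18.5% (mean 19.0% ± 0.526, SD, n = 3). Of these 74 regions, 71 lay at genes of the type ncRNA. Their median pooled signal was 225.2, against 217.4 for the other 318 regions. Transposable elements covered 6.08% of the eligible bases, and 1 of the 392 summits lay in one (0.255%, interval 0.045% to 1.43%). How the authors handled reads from repeats is not stated in the labels, and its part in this count was not tested.

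The regions that ranked highest on average lay at genes of many kinds. That between NimC3, a gene of the Nimrod family of phagocytic receptors, and hll had the best mean rank of all 392. It covers chr2L:14023899-14024319, its summit is 9 bp from the start of lncRNA:CR31840, and its signal was 575.4, 736.9 and 577.1 in replicates 1, 2 and 3, for ranks of 7, 8 and 9. The second lay 4204 bp upstream of Psc, which encodes a subunit of Polycomb repressive complex 1, at chr2R:12985025-12985409 and 169 bp from the start of lncRNA:CR44339. Its signal was 436.6, 688.8 and 487.5, for ranks of 18, 10 and 12. Another Polycomb gene stood among the first 15: the region between the polyhomeotic genes ph-d and ph-p, on X at 2123910 to 2124383 and 832 bp upstream of ph-d, had 329.5, 380.4 and 351.0. Replicate 2 gave the highest signal for each of these regions, but signals are on the scale of their own list. The ranks place each region near the top of every list.

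The third region, in lncRNA:Vinr between CG4004 and Paics, an enzyme gene of purine synthesis, had signals of 427.2, 586.2 and 474.4. The region downstream of CycB, the mitotic cyclin B gene, and of blw, which encodes a subunit of ATP synthase, had 372.0, 461.3 and 393.8. A region 693 bp upstream of RasGAP1, whose product speeds GTP hydrolysis by Ras, had 284.3, 354.9 and 317.2. All 3 regions ranked among the first 100 in every replicate. The segmentation genes slp1 and slp2, which encode forkhead factors, flank a region 4314 bp upstream of slp2 with signals of 301.4, 355.8 and 263.7 and ranks of 70, 92 and 134. The region 1192 bp upstream of l(3)neo38 came fifteenth with 251.7, 359.7 and 250.7, and it lay 321 bp from the start of lncRNA:CR45595. These regions were picked by their rank over the same replicates, so their like ranks are a description. Over the whole thresholded set, 111 regions had a better mean rank than the fifteenth of these.

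**Figure D3:**
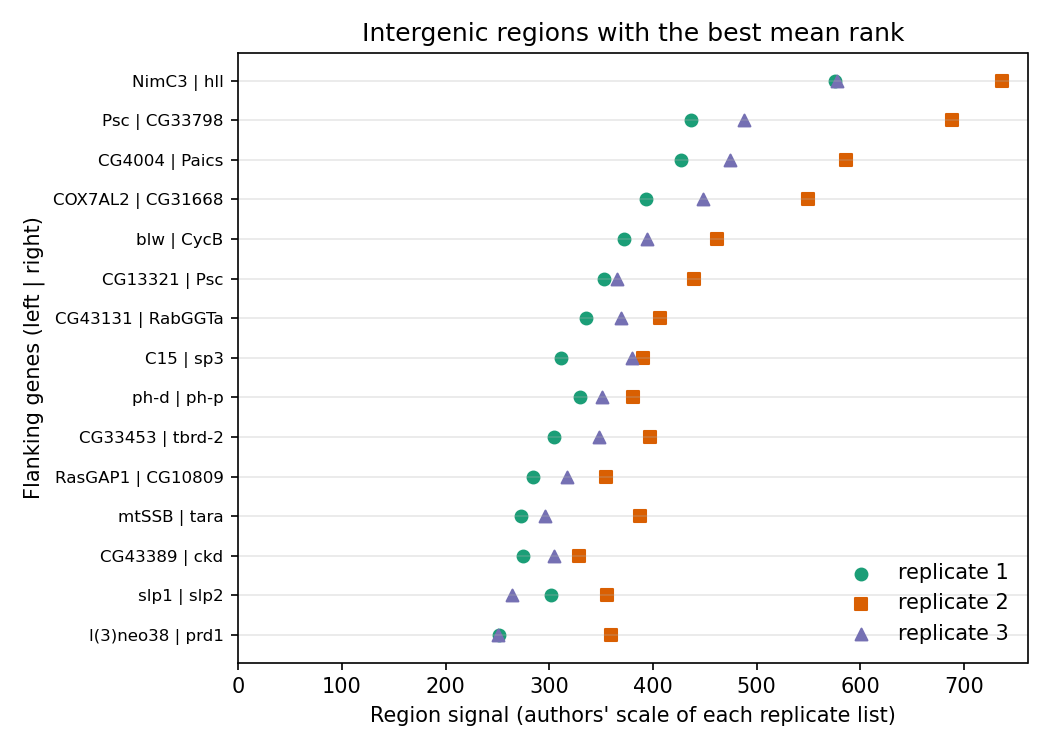
Each row is one of the 15 near-start intergenic regions with the best mean rank, named by the genes on its left and right, and points give its signal in each replicate on the authors' scale, which differs between replicate lists. The region between NimC3 and hll reaches 575.4 to 736.9, and the fifteenth, between l(3)neo38 and prd1, 250.7 to 359.7.

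Several gaps held more than 1 region. The 392 lay in 307 gaps, of which 65 held at least 2, with 150 regions between them (38.3%), and 14 held at least 3. Another summit of the thresholded set lay within 1 kb of 68 regions (17.3%, against 17.9% of the whole set). The gap of 20400 bp between mtSSB, a mitochondrial DNA-binding protein gene, and tara, the Trithorax group interactor taranis, held 5 regions. The strongest, 3150 bp upstream of tara, had signals of 272.6, 387.4 and 295.5, and that 1147 bp upstream had 246.0, 329.1 and 219.0. A region 3473 bp upstream had 111.0, 171.3 and 70.0, and the one nearest mtSSB 70.8, 95.9 and 77.2. All 5 were among the 3612 highest regions of every replicate.

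In the gap of 6792 bp between NimC3 and hll, 4 regions lay within 3128 bp. Besides the best region, that at 2091 bp from NimC3 had signals of 140.2, 242.0 and 238.0, and that at 1041 bp had 85.3, 77.1 and 65.5. The region 754 bp from NimC3 had 64.8 in replicate 2 and no region matched to it in replicates 1 and 3 (their rank is set to the last, 30000). Its summit lies 287 bp from that of its neighbour, and the deposited regions overlap. The gaps between robo2, a Slit receptor gene, and CG43401, between aop, an ETS repressor gene, and CG10874, and between Psc and CG33798 held 4 regions each.

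**Figure D4:**
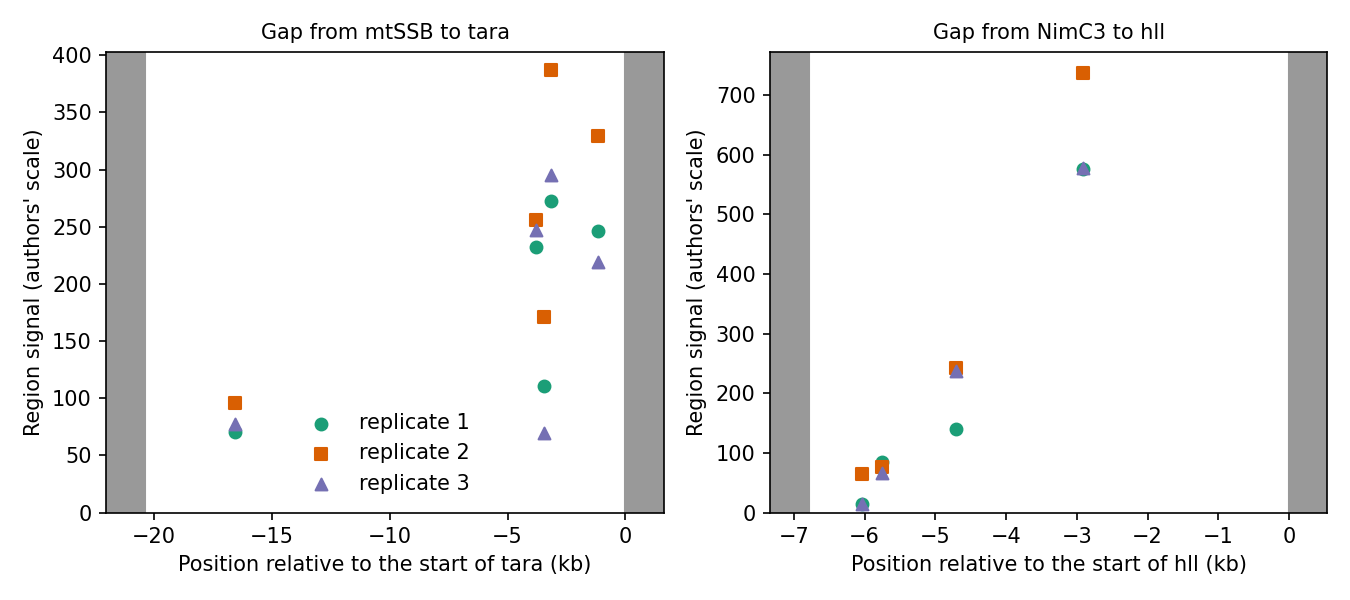
Points show the signal of each near-start intergenic region in each replicate, on the authors' scale, against position in kb relative to the start of tara (left) or hll (right), with neighbouring gene bodies in grey. In the gap at tara, 4 of 5 regions lie within 4 kb of its start, and at hll the signal is highest at the region 2911 bp from the start. For the region 754 bp from NimC3, no region matched in replicates 1 and 3. Its points there (15.2 and 14.2) are the lowest signals of those lists, not measured values.

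The gene lists were read through the gene of the nearest start. In all, 48 of the 392 regions (12.2%) had a listed gene nearest, against 10.8% of the whole thresholded set, over 21 lists. No list was tested, and counts this small are a description. Lists tied to proneural activity are described first, an order that does not follow their counts. The Notch list, which also holds the E(spl) and Bearded family genes, had 5 regions (1.28%, against 0.471% of the whole set), all in the E(spl) complex on 3R. The region 1773 bp upstream of E(spl)malpha-BFM had signals of 128.5, 164.7 and 110.8, and that 550 bp upstream of E(spl)m2-BFM had 359.6 in the pooled list and ranks of 847, 909 and 907. Both are Bearded family genes. The regions at the bHLH repressor genes E(spl)m3-HLH, E(spl)m7-HLH and E(spl)mgamma-HLH were weaker, with pooled signals of 289.6, 164.3 and 159.4. The first 3 named were among the highest regions of all 3 replicates, and the other two of 2 replicates.

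Sensory organ precursor genes had 4 regions (1.02% against 0.692%). The strongest lay 610 bp upstream of cpo, which encodes an RNA-binding protein of the peripheral nervous system, with 144.5, 225.9 and 195.9 and ranks of 474, 336 and 304. That at sens, a zinc finger gene that sustains proneural expression, had 54.2, 72.1 and 51.6, and those at sens-2 and edl had pooled signals of 208.3 and 186.0. No region had a proneural gene nearest, where the whole set had 5 (0.138%), and none a sex determination gene, where the whole set had 7 (0.194%). Neuron differentiation genes had none nearest, where the whole set had 15 (0.415%), and 1 region was flanked by such a gene, robo1. Cytoplasmic ribosomal protein genes had none, where the whole set had 58 (1.61%). The rule leaves out promoter summits, which were 37.8% of the whole set, so it can lower such counts by itself.

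Neuroblast genes had 4 regions (1.02%, against 0.498% of the whole set). One was nearest to the start of insc, needed for asymmetric division of neuroblasts, with 51.1, 117.2 and 58.3. The genes flanking that region were sktl and CG17999, not insc. The SoxB gene D had 2, at pooled signals of 199.5 and 178.8, and ey had 1 on arm 4 with 146.0, the lowest of all 392. The region at ey was among the highest of no replicate. Polycomb and Trithorax group genes had 3 (0.765%, against 0.72%, so near the background), at Psc, ph-d and psq (pooled signals 1612.9, 1056.2 and 155.6), of which the last lay near the lower end of the 392. Mesoderm genes also had 3 (0.765% against 0.415%), which were bin, a forkhead gene of visceral mesoderm (131.9, 170.7 and 219.9), kon and zfh1. Gut genes had 3 (0.765% against 0.36%), at GATAe, bowl and srp, with pooled signals of 209.7, 201.8 and 165.8. The signalling list had 2 (0.51% against 0.941%). Its region 1779 bp upstream of fz, the Frizzled receptor gene, had 197.0, 248.2 and 230.5, and that upstream of dpp 58.5, 69.8 and 46.1. Hox and cofactor genes had 3 (0.765% against 0.692%), at Dfd and hth. Dorsal-ventral genes had 3 (0.765% against 0.969%), at Doc2, dl and dpp, all with pooled signals between 173.0 and 182.8. Of the other lists, anterior-posterior genes had 3 (0.765% against 0.692%), cell cycle genes 2 (0.51% against 0.305%) and nuclear receptor genes 2 (0.51% against 1.16%). Hemocyte and fat body genes had 2 (0.51% against 0.332%). Glial genes, epidermis genes and mitochondrial ribosomal protein genes had 1 each (0.255%), against 0.36%, 0.415% and 0.249% of the whole set.

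Chemoreceptor genes, which are used in taste and smell, were nearest to 8 regions (2.04%), out of 10 in the whole set (0.277%). Of the 8, 5 lay around Gr93a, a gustatory receptor gene on 3R, which also lies next to CASK, a scaffold protein gene. The strongest of these, 3407 bp upstream of Gr93a, had signals of 118.2, 198.6 and 136.0, and that 4139 bp upstream had 150.2, 103.4 and 128.7. The other 3 had pooled signals of 157.8 to 192.0 and were among the highest regions of 2 replicates each. Gr93d, Gr89a and Ir67b had 1 region each. Since most of these summits come from a single locus, the 8 are few independent positions.

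The replicates were compared next. A replicate was said to hold a region when its own best match within 250 bp ranked among its 3612 highest. Replicate 1 held 301 of the 392 (76.8%), replicate 2 held 328 (83.7%) and replicate 3 held 329 (83.9%), a mean of 81.5% ± 4.05 (SD, n = 3). All 3 replicates held 230 regions (58.7%, interval 53.7% to 63.4%), against 62.5% of the thresholded set. Of the rest, 109 were held by 2 replicates, 50 by 1 and 3 by none. Replicate 1 alone missed 47, replicate 2 alone 32 and replicate 3 alone 30. A q-value under 5% in all 3 replicates was reached by 322 regions (82.1%), against 83.4% of the set. The thresholded set was derived from these replicates, so these shares do not measure reproducibility independently.

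Compared with distal intergenic regions, the share held differed by -4.07, 3.39 and 2.50 percentage points in the 3 replicates, near-start minus distal (mean 0.605 ± 4.08, exact two-sided sign-flip permutation test p = 1). The replicates disagreed in direction, and leaving out replicate 2 or replicate 3 turned the mean to -0.786 or -0.342. Compared with introns at the same distance the difference was -3.17, -0.548 and -1.04 points (mean -1.59 ± 1.40). It was negative in all 3, and the exact permutation p of 0.25 is the smallest that 3 pairs can give. Among the 50% of regions with the highest pooled signal this mean was 0.168, the opposite direction. The median pooled signal was 219.4 for the near-start intergenic regions, 207.0 for distal intergenic, 230.9 for near intronic, 256.0 for promoter and 231.9 for all thresholded regions. It ran from 146.0 to 1877.9 among the 392.

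The share of near-start intergenic regions varied with rank. Among the 100 pooled regions of highest signal, 14 were near-start intergenic (14.0%, interval 8.53% to 22.1%), against 28 of the next 400 (7%, 4.89% to 9.93%). The share was 10.4% from rank 501 to 1000, 10.8% from 1001 to 2000 and 11.8% from 2001 to 3612. Below the threshold it went on to 12.4% from rank 3613 to 6000, 13.6% from 6001 to 10000, 14.1% from 10001 to 20000 and 14.2% from 20001 to 30000. The pooled list holds peaks and background, and only 2892 of its regions outside the thresholded set had a q-value under 5%. Most regions below the threshold thus did not reach that q-value. From rank 10001 on, the share exceeded the 10.6% of called bases that meet the rule, a comparison that was not tested. After the first 500 ranks the share was higher in each bin than in the one before, but neighbouring intervals overlapped. Of the 392, 63 regions (16.1%) were among the 20% of the thresholded set with the highest pooled signal.

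Sequence at the summits was then compared with sequence 1000 bp away, on the side away from the nearest start. These windows were searched on both strands for 22 motifs, each tested with an exact two-sided McNemar test and Benjamini-Hochberg adjustment over the 22. At an adjusted p under 0.05, 1 motif was more frequent at summits (4.55% of the motifs) and none was less frequent (0% of the motifs). At an unadjusted p under 0.05, 2 were less frequent, CACCTG (p = 0.0315, exact McNemar test) and CACGTG (p = 0.0213, exact McNemar test).

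The achaete-scute heptamer GCAGCTG or GCAGGTG was present in 11 of 392 summit windows (2.81%, interval 1.57% to 4.95%) and 18 flank windows (4.59%). Their ratio was 0.611, with an adjusted p of 0.843 (exact McNemar test), so no difference was detectable. Of the 392 pairs, the test rests on the 10 with the site at the summit only and the 17 with it at the flank only. In the replicates' own lists the share was 3.25%, 3.08% and 3.33% (mean 3.22% ± 0.127, SD, n = 3). It was 4.57% in distal intergenic, 4.80% in near intronic and 5.06% in promoter regions, and 6.19% of all 67542 windows of this length that tile the eligible sequence. The last share lies above the interval of the summit share, a comparison that was not tested. The regions of highest signal did not concentrate the site: 0 of the best 15 and 1 of the best 50 by mean rank held it.

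The 11 regions with the heptamer were, in order of mean rank, at cpo, trbl, insc, Hr51, Grl40a, Ir67b, Adk3, E(spl)m7-HLH, Rh5, E(spl)mgamma-HLH and Act5C. The region at trbl, which encodes the tribbles pseudokinase that slows mitosis, had 95.5, 100.6 and 62.2. Those at Grl40a and Ir67b, printed above, had pooled signals of 164.0 and 158.7, near the bottom of the 392. Of the 11, cpo, trbl, insc, Hr51 and Grl40a were among the highest regions of all 3 replicates. The share so held was 58.7% over the 392 and 62.5% over the thresholded set, so the site regions did not stand out by it. The region at Act5C, the cytoplasmic actin gene, ranked 468 and 814 in replicates 2 and 3 but had no match in replicate 1. A replicate region was matched only to its nearest thresholded summit, so a missing match does not show that no region lay there. A match to these letters is not evidence of binding there, and its absence from a window says nothing about the factor.

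None of the 10 E-box hexamers passed the test. CAGCTG was in 4.34% of summit windows and 6.38% of flanks, against 10.7% of promoter windows. The E-boxes with other central bases had summit shares from 0.765%, for CACGTG, to 21.7%, for CAAATG. Their flank shares were 3.32% and 23.98%, respectively. CATATG was in 9.18% of summit windows and 9.69% of flanks, the ratio nearest to 1 after that of CAAGTG, which was in 11.99% and 12.2%. CACCTG was in 4.08% against 7.91% of flanks. The remaining 4, with CAACTG highest and CAATTG lowest at summits and with CACATG as well as CAGATG between them, lay between 8.16% and 9.95% at summits and between 8.67% and 14.0% at flanks. All 10 ratios of summit to flank share were below 1. So were those of the control heptamers without a known factor, GACGCTC or GACGGTC (0.5) and GGCACTG or GGCAGTG (0.538). Flank windows also had more GC (41.3% against 34.8%), and the part of base composition in these ratios was not tested. The share of the same windows over the eligible sequence was between 2.48% for CACGTG and 22.7% for CAAATG. It exceeded the summit share for each E-box except CATATG, which was in 6.33% of eligible windows, below the summit interval of 6.71% to 12.5%. That comparison was not tested. The letters of CAGCTG lie within GCAGCTG, and so do those of CACCTG within GCAGGTG read on the other strand, so these counts are not independent.

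No motif of the other embryonic factors searched passed the test either. GATAAG, the GATA factor site, was in 9.44% of summit windows and 7.65% of flanks (8.25% of eligible windows). GAGAGAG of GAGA factor was in 2.55% and 2.30% (2.17%), GTGGGAA of Su(H) in 3.32% and 2.55% (2.81%), and CACACACA in 3.83% and 5.36% (4.52%). CAGGTAG of Zelda was in 0.765% and 1.02% (0.927%), and GGTCACAC of M1BP in 0.765% and 0.255% (0.265%). TATCGATA of DREF was in 0.255% of the 392 and in 4.33% of promoter windows, and AACCGGTT of Grainyhead in 0 of 392 (0.192% of eligible windows). The control heptamers GACGCTC or GACGGTC were in 0.510% and 1.02% (1.25%), and GGCACTG or GGCAGTG in 1.79% and 3.32% (4.39%).

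TATAAA, the TATA box hexamer, was the motif that did: it was in 144 summit windows (36.7%, interval 32.1% to 41.6%) and 94 flank windows (23.98%), a ratio of 1.53 (adjusted p = 0.00526, exact McNemar test). The share was 35.8%, 38.3% and 37.2% in the replicates' own lists (mean 37.1% ± 1.27, SD, n = 3) and 24.3% of eligible windows. It was 38.7% over the whole thresholded set and 41.3% at promoters, so the near-start intergenic regions were not alone in it. By mean rank, 5 of the best 15 and 12 of the best 50 regions held it, so it was not concentrated in the regions that ranked highest. The call was lost with windows of 50 or 200 bp on each side (adjusted p = 0.369 and 0.172, exact McNemar test). It was also lost with fewer regions. Setting aside replicate 1, 2 or 3 kept only the 277, 262 or 260 regions that both other replicates held (adjusted p = 0.107 to 0.139, exact McNemar test). The main test had no such filter, so these runs do not show dependence on a single library.

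Base composition moved with this motif. Mean GC content was 34.8% ± 6.91 (SD over 392 windows) at summits and 41.3% ± 8.75 at flanks, and the flank was higher in 276 of 392 pairs (70.4%). Eligible windows had 40.6% ± 8.34. Across the summit, GC content had its minimum of 32.8% within 50 bp and rose to 44.4% between 250 and 300 bp away, before it fell to about 40.5% farther out. Among windows of at most 30% GC, TATAAA was in 62.6% of the 99 summits and 56.6% of eligible windows. From 30% to 35% GC it was in 37.7% of 122 summits and 39.7% of windows, and from 35% to 40% in 28.7% of 87 and 27.6%. From 40% to 45% it was in 12.7% of 55 and 17.1%, and above 45% in 13.8% of 29 and 8.31%. In each band the share of eligible windows lay inside the Wilson interval of the summits' share. These intervals were wide where summits were few, as from 5.497% to 30.56% for the 29 above 45% GC. The heptamer went the other way, in 0 of 99 summits of at most 30% GC, which allows a share of up to 3.74% (upper end of the Wilson interval), and in 4 of 29 above 45% (13.8%), against 1.17% and 10.3% of eligible windows. These bands were chosen after the motif values were seen, and the part of base composition in the TATAAA difference was not tested.

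**Figure D5:**
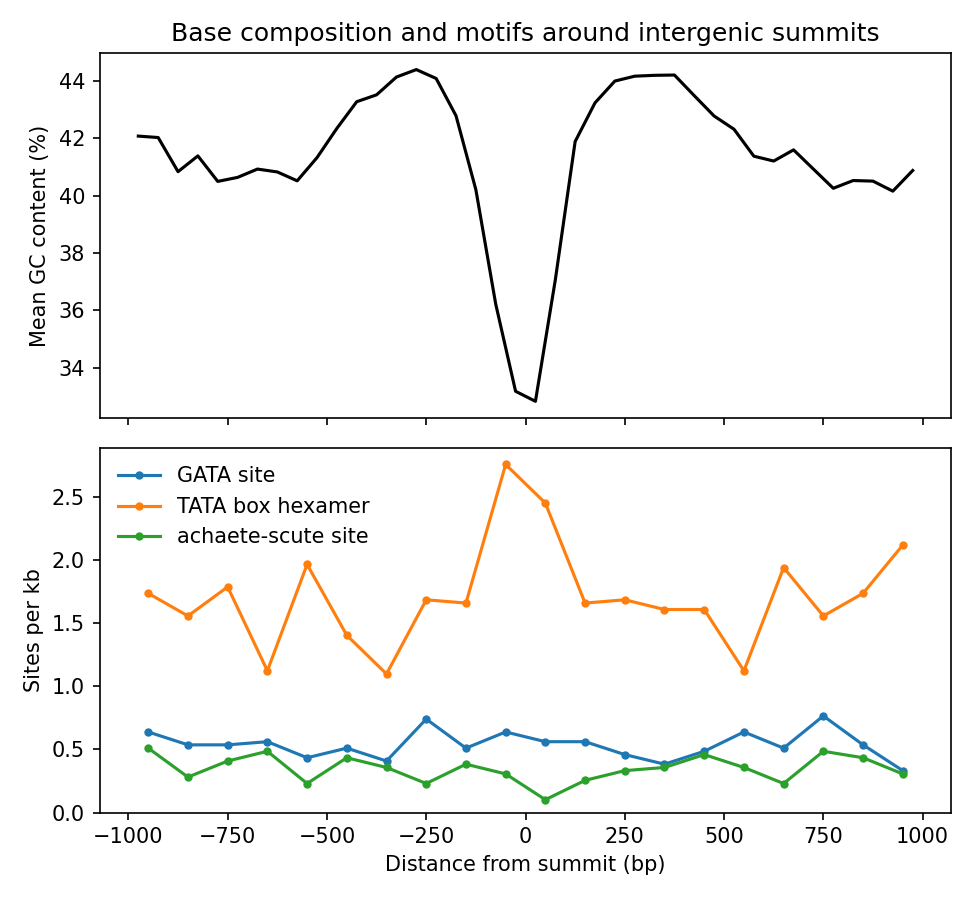
Upper panel, mean GC content (%) in bins of 50 bp against distance from the summit (bp) over the 392 regions. Lower panel, sites per kb in bins of 100 bp for the TATA box hexamer, the GATA site and the achaete-scute heptamer. GC content is lowest at the summit (32.8%), the TATA box hexamer reaches 2.76 sites per kb there, and the achaete-scute heptamer has its lowest bin, 0.102 per kb, just to one side of it.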

How the data were processed

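The 3 biological replicates form a single group. Signal values and the −log10 of the q-value of each region are as deposited by the authors, who gave a list for each replicate, a list for the pooled replicates and a thresholded set, per the text deposited with the samples. Signal is on the scale of its own list. The summit offset came from the same deposited lists. For the peak caller and the aligner, names and versions were not given in the sources used here. Depth in reads was unknown, so intervals cover counting error over regions only. Each replicate list and the pooled list had 30000 regions.

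Positions are 1-based on dm6. Gene models came from Ensembl release 115, transposable elements counted apart from genes, and sequence from Release 6. A replicate region was assigned to its nearest thresholded summit within 250 bp, the highest was kept, and an unmatched region took rank 30000 and the lowest signal of the list. This left 5, 4 and 4 regions unmatched in replicates 1, 2 and 3. Flanks within 300 bp of another summit were replaced by the other side, and no pair was dropped.

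The members and lists were chosen with earlier results of these data known. Named regions were the 15 of best mean rank, the 2 best per list, the 5 best with the heptamer, the 5 best at non-coding genes and those at the distance bounds; others were named after their values were seen. The statistical code was tested on simulated data. Python 3.11.15, numpy 2.4.6, scipy 1.17.1, pandas 2.3.3 and matplotlib 3.10.9 were used.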

Additional observations from a re-analysis of the deposited data

Results flagged for a closer look

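Regions below the thresholded set also met the position rule. Of 2892 pooled regions outside the set with a q-value under 5%, 348 were near-start intergenic (12.03%), and 39 of these (11.2%) had a q-value under 5% in every replicate too. Over all 2892 regions the share with a q-value under 5% in every replicate was 12.03%. These 39 drew attention as a signal outside the regions that the comparisons used. Of the 39, 22 lay more than 250 bp from every thresholded summit. The strongest of these 22 was 1119 bp from the start of Dad, the inhibitory Smad gene of Dpp signalling, with a pooled signal of 145.3 and pooled rank of 3628.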

How the results depend on the processing

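Under other definitions the 392 regions became 347 when non-coding gene bodies were also excluded, 496 and 314 with lower bounds of 300 and 1000 bp, 532 with an upper bound of 10000 bp, and 180 among the 50% of regions with the highest pooled signal. The share held by all 3 replicates was 55.4% to 62.0% under other matching rules, 95% among that upper 50%, and 66.3% to 70.7% when only 2 replicates were required. Over all thresholded regions these shares were 58.3% to 66.7%, 94.5%, and 70.2% to 71.1%, respectively. The share of highest regions meeting the rule was 9.60% for the highest 1000, 11.2% for a q-value under 5%, 9.38% with all gene bodies excluded, and 10.5% to 10.8% without each replicate. The difference from distal intergenic regions turned to -0.412 with matching within 100 bp and to -1.61 in the upper 50%, and ran from -0.786 to 2.94 without each replicate. That from near introns turned to 0.168 in the upper 50%. The number of motifs more frequent at summits was 0 with windows of 50 or 200 bp on each side. It was also 0 for regions held by all 3 replicates and for the 196 of the 392 with the highest pooled signal. With each replicate set aside, it was 0 for the regions that both other replicates held. The cause was not tested, though the last 3 settings use fewer regions. The TATAAA ratio ran from 1.24, with windows of 200 bp on each side, to 1.53. Among the alternatives it passed the test with a flank toward the start (adjusted p = 0.0165, exact McNemar test) or 2000 bp away (0.00692), and in none of the other 7. The ratio for the heptamer was 0.25 to 0.744, passing in none. No paired analysis was possible because there is a single group, so no sample has a partner in another group; pairs above are classes of region within a library, or windows within a region. The dm3 lists were not used. Precision is limited by 3 replicates, unknown depth and shared libraries.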
